A study of Danio rerio with 9 samples.

Results

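The genes described here are those whose symbol, in any case, is bmp followed by a number and at most 1 letter. The rule found 5 genes among 8969 gene IDs measured per library in early zebrafish (Danio rerio) embryos: BMP2 (ENSDARG00000041430), BMP7 (ENSDARG00000063230), bmp15 (ENSDARG00000037491), BMP1 (ENSDARG00000028071) and BMP2K (ENSDARG00000020009). Of the 5, 3 encode secreted ligands (BMP2, BMP7 and bmp15). The other 2 carry a Bmp name but encode enzymes: BMP1 is a tolloid-type metalloprotease, and BMP2K is a protein kinase named for its induction by BMP2 in mammalian cells. In a further gene table with 1 value per stage, 4 of the 5 were present; BMP7 was not analysed there. Symbols are printed in the case of the table that names the IDs. That table gives BMP2 to another ID as well, and does not say whether the ID measured here is bmp2a or bmp2b; bmp7a stands under another ID than the BMP7 measured here. Further IDs with a Bmp name, such as BMP4 and bmp7a, were not analysed here.

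Bone morphogenetic proteins are ligands of the Tgf-beta family. They are made as precursors, cut by furin-type proteases and secreted as dimers, and they bind paired type I and type II receptor kinases, which phosphorylate Smad proteins that enter the nucleus and turn on target genes. In the zebrafish embryo a Bmp2b and Bmp7a dimer sets ventral and lateral fates, while Chordin and Noggin from the dorsal side bind the ligands and the tolloid-type proteases cut Chordin. BMP15 is best known as a product of the oocyte.

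Embryos of the wild-type AB strain were sampled at the 128-cell, 256-cell and 512-cell stages. In the labelled groups 4-thio-UTP, a uridine analogue that is built into new RNA, was injected at the 1-cell stage (1 nl of 50 mM). RNA was biotinylated at the analogue and purified on streptavidin beads, so labelled libraries hold RNA made since injection plus carry-over, and the unlabelled groups, put through the same purification, show the carry-over. Each stage has 2 labelled libraries, which the labels call technical replicates, and 1 unlabelled library. Except in the fit of labelled against unlabelled RNA over the 3 stages, p-values thus measure technical spread. That fit sets the label difference against its variation between stages, with an SD taken from all genes. The injection is described alike for all samples; whether unlabelled embryos were mock-injected, and how many embryos were pooled, is not given in the sources used here. In such bulk samples fewer cells of a type and less RNA per cell cannot be told apart.

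Replicate 1 was above replicate 2 in most genes: among genes above 0 in both, the median ratio was 1.61 at 128-cell, 2.15 at 256-cell and 2.17 at 512-cell. The median FPKM of the unlabelled libraries fell from 2.52 through 1.35 to 0.836 in stage order. Of the summed FPKM with the label, 35.8% and 42.7% belonged to genes of the mitochondrial genome at 128-cell and 19.5% and 12.8% at 512-cell. Without the label the share was 0.453%, 0.367% and 0.456% in stage order. Of 7 maternal embryo genes found, nanog was highest, between 172 and 503 FPKM in the labelled libraries and between 79.7 and 225 FPKM in the unlabelled ones. The lowest, ZAR1L, lay between 0.389 and 3.40 FPKM in the labelled libraries. Of 17 listed markers of differentiated tissues 1 was found among the measured genes, the alpha-actin gene actc1a. The absence of the others does not by itself check the tissue.

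BMP2 was near 0 in labelled RNA of the 128-cell stage, reached its highest values at 512-cell and was listed at 0 in each unlabelled library. In labelled RNA it was listed at 0 and 0.137 FPKM at 128-cell (replicates 1 and 2), at 1.82 and 0.685 FPKM at 256-cell and at 13.7 and 4.03 FPKM at 512-cell. Both 512-cell values lay above both 256-cell values, and these above both 128-cell values, so the 3 stages did not overlap. The share of all genes with this full order was not counted. At 128-cell, 0% and 7.58% of genes had a lower FPKM than BMP2 in replicates 1 and 2, and at 512-cell 85.7% and 79.0% did. The combination of 0 in all 3 unlabelled libraries with a value above 0 in all 4 labelled libraries of the 2 later stages was shared by 101 of 8969 genes (1.13%). Both 512-cell labelled libraries were above all 7 others for BMP2, as for 7.35% of genes.

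**Figure D1:**
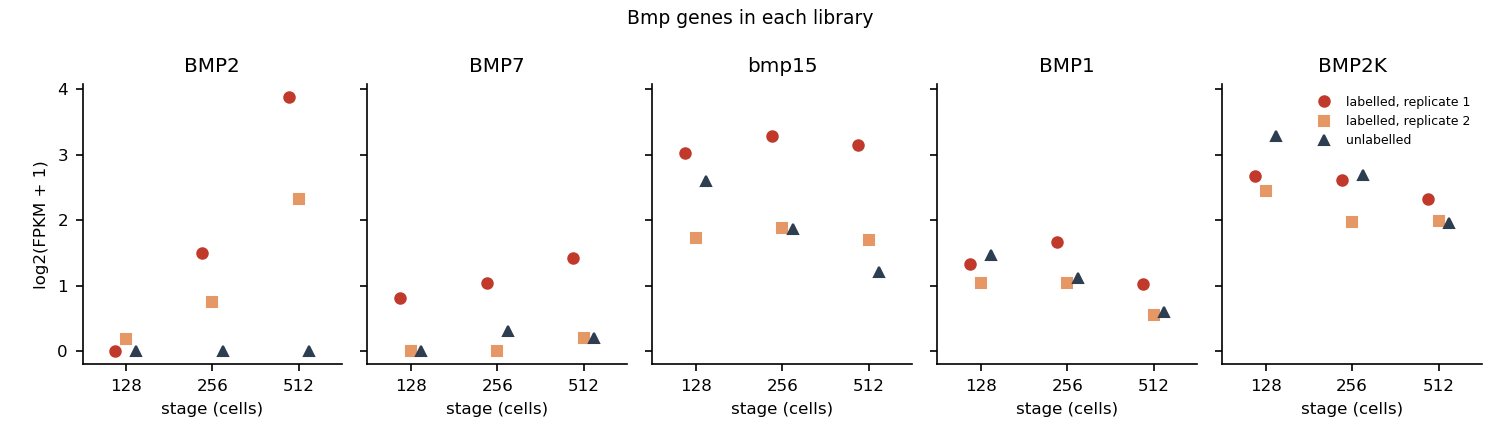
Level of the 5 Bmp genes as log2(FPKM + 1) (vertical axis) at each stage (horizontal axis, number of cells), with 1 point per library: circles and squares are labelled replicates 1 and 2, triangles unlabelled RNA. BMP2 climbs to 13.7 and 4.03 FPKM in the 512-cell labelled libraries with unlabelled RNA at 0, while bmp15, BMP1 and BMP2K are present in all 9.

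From 128-cell to 512-cell, BMP2 rose by 3.01 ± 0.56 on the log2(FPKM + 1) scale (SE, n = 2 technical replicates per stage; limma adjusted p = 0.00952). It was the 1 of 5 members that passed, against 4.96% of 7438 tested genes that were higher and 0% that were lower. The pseudocount shrinks changes of low genes, and BMP2 entered the test through labelled 256-cell and 512-cell libraries. Among the 369 genes that were higher, BMP2 ranked 186th by size, near their median of 3.04. The median of all genes was -0.11, so BMP2 stood 3.12 above it. With each labelled library left out in turn, the rise lay between 2.24 and 3.78. Such a fit has 1 library in 1 of the stages. With each library scaled to its FPKM sum outside the mitochondrial genome, the all-gene median moved to -0.80, and BMP2 had 2.62 ± 0.81, which is 3.42 above that median, with adjusted p = 0.0983; on that scale 1 gene passed.

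The step from 128-cell to 256-cell was 1.03 ± 0.56 for BMP2 (limma adjusted p = 1) and that from 256-cell to 512-cell 1.98 ± 0.56 (limma adjusted p = 0.337). By limma 0 of 7438 genes passed in either step. Before adjustment, p was under 0.05 for 246 higher and 10 lower genes in the first step and for 326 higher and 9 lower genes in the second. None of the 5 members was among the former and BMP2 was the 1 member among the latter. With size factors the later step of BMP2 passed (2.04 ± 0.25, limma adjusted p = 0.0231), and 217 of 7074 genes passed there. With replicate number as a block the later step also passed (1.98 ± 0.35, limma adjusted p = 0.0107), and 382 of 7438 genes passed there. The first step of BMP2 did not pass with the block (1.03 ± 0.35, limma adjusted p = 0.272). The labels do not say what a replicate number stands for. With each labelled library left out in turn, the later step lay between 1.21 and 2.75.

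BMP2 was higher in labelled than in unlabelled RNA at 512-cell by 3.10 ± 0.64 (SE; 2 labelled libraries and 1 unlabelled; limma adjusted p = 0.0256). There 3.72% of 7697 genes were higher and 0.221% lower, and BMP2 was again the 1 member called. The all-gene median of this comparison was 0.73, and BMP2 stood 2.38 above it. The call held in every alternative run, with adjusted p at most 0.0468. At 256-cell, where 1.13% of genes were higher, the difference of BMP2 was 1.12 ± 0.64 (limma adjusted p = 0.950). At 128-cell, where 0.078% were higher, it was 0.09 ± 0.64 (limma adjusted p = 1).

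Over the 3 stages together, BMP2 had 1.44 ± 0.33 (3 labelled and 3 unlabelled stage values; limma adjusted p = 0.00036), where 11.9% of genes were higher and 0.974% lower; no other member passed. The estimate averages unlike stages. The residual SD of BMP2 itself was 1.08, while the moderated SD behind its test was 0.41 and came from the trend over all genes alone. The call ended with a pseudocount of 0.1 (limma adjusted p = 0.0671), with size factors (0.163) and with the FPKM sum outside the mitochondrial genome (0.0610). It also ended without labelled 128-cell replicate 2 (limma adjusted p = 0.134), without the unlabelled 256-cell library (0.364) and without the unlabelled 512-cell library (0.887, with a difference of 0.61).

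The 512-cell against 128-cell change of BMP2 in labelled RNA exceeded that in unlabelled RNA by 3.01 ± 0.91, and that difference of changes did not pass (limma adjusted p = 0.357). The all-gene median of this difference was 0.94, and BMP2 stood 2.07 above it. By limma 0 of 7697 genes passed this test, with 563 higher and 5 lower at an unadjusted p under 0.05, BMP2 among the higher. With size factors BMP2 passed (2.92 ± 0.43, limma adjusted p = 0.0392), and 134 of 7406 genes passed there, with an all-gene median of -0.02. With each labelled library left out in turn, the difference of changes lay between 2.24 and 3.78.

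BMP7, the symbol of a dimer partner of BMP2-type ligands, was near the floor of the table. In labelled replicate 1 it had 0.755, 1.05 and 1.69 FPKM in stage order. In labelled replicate 2 it was listed at 0 at both earlier stages and at 0.146 FPKM at 512-cell. The unlabelled libraries had 0, 0.234 and 0.148 FPKM, so the values above 1 FPKM came from replicate 1 alone. The 512-cell against 128-cell difference was 0.41 ± 0.47 and that of labelled against unlabelled RNA at 512-cell 0.61 ± 0.61 (limma adjusted p = 1 and 0.603). The all-gene median with against without label at 512-cell was 0.73, and BMP7 stood at -0.11 from it. BMP7 entered the tests through the 256-cell and 512-cell libraries of replicate 1 and was not tested with size factors.

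The oocyte ligand gene bmp15 was present at every stage with and without the label, and no comparison passed. Labelled replicate 1 had 7.14, 8.78 and 7.84 FPKM in stage order. Labelled replicate 2 had 2.32, 2.70 and 2.26 FPKM. The 3 stages overlapped fully, and the gap between replicates, 3.07-fold to 3.48-fold, was wider than the median gap over all genes at each stage. Unlabelled RNA had 5.03, 2.66 and 1.32 FPKM. This decline ran beside the fall of the median FPKM of those libraries; divided by their size factors the values were 3.47, 3.47 and 2.84. From 128-cell to 512-cell the fitted difference in labelled RNA was 0.04 ± 0.75 (limma adjusted p = 1). Labelled against unlabelled RNA differed by -0.21 ± 0.91 at 128-cell, 0.72 ± 0.91 at 256-cell and 1.21 ± 0.91 at 512-cell (limma adjusted p = 1, 0.950 and 0.534). At 512-cell that is 0.49 above the median of all genes. Over the 3 stages it was 0.57 ± 0.40 (limma adjusted p = 0.391), and passed without the unlabelled 128-cell library (0.96, limma adjusted p = 0.0286). In that run 2898 of 7510 genes passed, and the median of all genes was 0.59.

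BMP1, whose product cuts procollagens and, in the tolloid family, Chordin, was low in all libraries. It had 1.53 and 1.07 FPKM in the labelled 128-cell libraries, 2.18 and 1.06 FPKM at 256-cell and 1.03 and 0.476 FPKM at 512-cell. Both 512-cell values lay below both values of each earlier stage (at the closest 1.03 against 1.06 FPKM), an order not counted over all genes. Unlabelled RNA had 1.78, 1.17 and 0.519 FPKM, also lowest at 512-cell. This decline ran beside the fall of the median FPKM of the unlabelled libraries. Divided by their size factors the values were 1.23, 1.52 and 1.12. The labelled difference of 512-cell against 256-cell was -0.56 ± 0.41 and that against 128-cell -0.40 ± 0.41 (limma adjusted p = 1 for both). Labelled against unlabelled RNA over the 3 stages differed by 0.05 ± 0.33 (limma adjusted p = 0.954), a difference that turned to -0.18 with size factors.

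BMP2K, a kinase of the family that phosphorylates clathrin adaptors, had its highest value without the label. Labelled libraries had 5.41 and 4.45 FPKM at 128-cell, 5.14 and 2.93 FPKM at 256-cell and 3.99 and 2.97 FPKM at 512-cell. Unlabelled RNA had 8.79, 5.44 and 2.87 FPKM, above both labelled libraries at the 2 earlier stages and below both at 512-cell. The labelled difference of 512-cell against 128-cell was -0.41 ± 0.56 (limma adjusted p = 1). Labelled against unlabelled RNA over the 3 stages differed by -0.31 ± 0.42 (limma adjusted p = 0.727), which is -0.63 from the median of all genes. Divided by size factors, its values lay between 2.61 and 4.93 in the 6 labelled libraries and between 6.07 and 7.09 in the 3 unlabelled ones, without overlap, as for 11.8% of 8969 genes. The fitted difference on that scale was -0.68 ± 0.16, which did not pass (limma adjusted p = 0.0588).

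**Figure D2:**
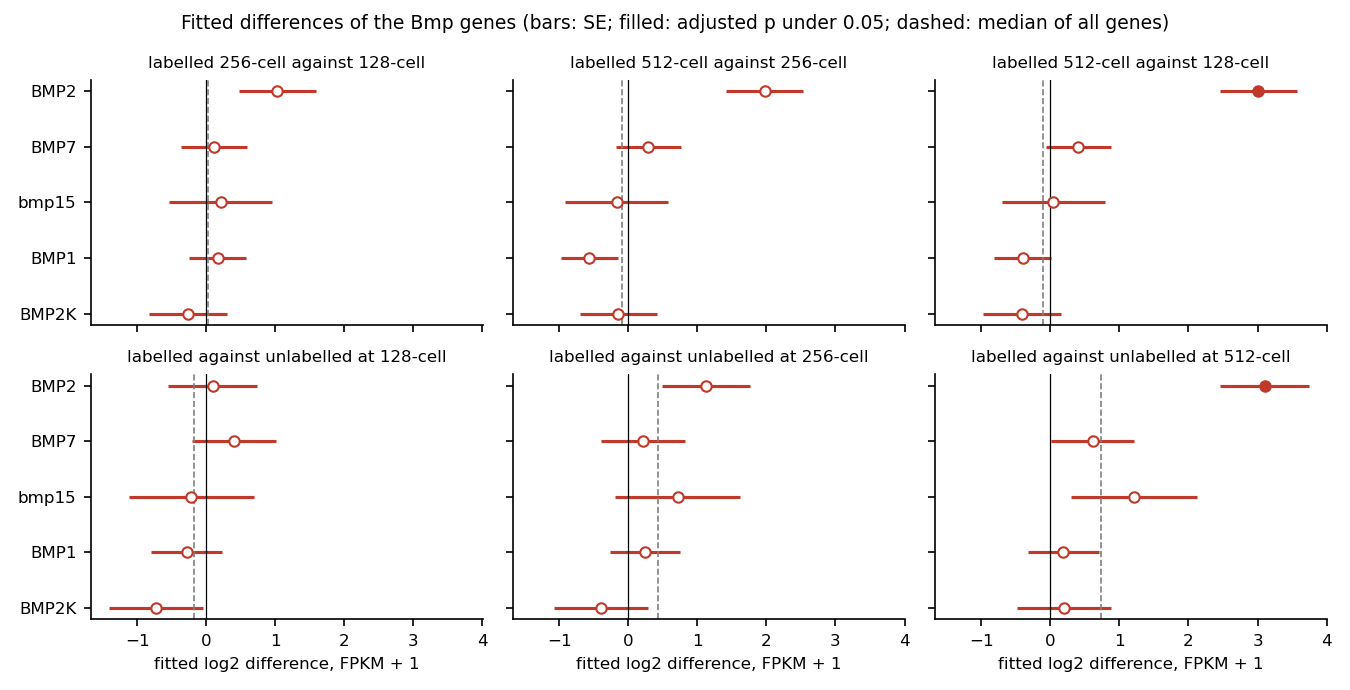
Fitted differences of the 5 Bmp genes on the log2(FPKM + 1) scale (horizontal axis) in the 3 stage comparisons of labelled RNA (top) and in labelled against unlabelled RNA at each stage (bottom). Bars are SE, filled points have a limma adjusted p under 0.05 and the dashed line is the median of all tested genes; BMP2 is filled at 512-cell against 128-cell (3.01) and at 512-cell with against without label (3.10).

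In order of level per length, the labelled 128-cell libraries put bmp15 and BMP2K first (7.14 and 5.41 FPKM in replicate 1; 2.32 and 4.45 in replicate 2), with their order switched between replicates, then BMP1, and BMP2 and BMP7 at the bottom. At 512-cell BMP2 stood first in both replicates, at 13.7 FPKM before bmp15 at 7.84 in replicate 1, and at 4.03 FPKM before BMP2K at 2.97 in replicate 2. As deposited, BMP2 in replicate 2 lay below bmp15 in replicate 1. Divided by size factors, BMP2 had 8.96 and 5.60 at 512-cell, above bmp15 at 5.13 and 3.14 and BMP2K at 2.61 and 4.13, and the latter pair overlapped.

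For bmp15, BMP1 and BMP2K the deposited stage values gave another trend than the libraries, and for BMP2 both were highest at 512-cell. BMP2 stood at 0.0781, 1.21 and 12.4 FPKM in stage order in the authors' deposited stage table. For bmp15 the authors' stage values were 2.81, 5.55 and 7.09 FPKM, a 2.53-fold rise from 128-cell to 512-cell, whereas the means of the library values gave 1.07-fold. BMP2K had 3.52, 4.46 and 4.92 FPKM in the authors' stage table, 1.40-fold against 0.706-fold from the library means, and BMP1 had 0.820, 1.73 and 1.22 FPKM, 1.49-fold against 0.580-fold. Over all genes in both tables the median 512-cell against 128-cell fold was 2.04 in the stage table and 0.923 from the library means. Relative to these medians, BMP1 and BMP2K lay below in both tables, while bmp15 lay above in both. The scaling between stages is not given in the sources used here, and the stage values have no replicates.

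**Figure D3:**
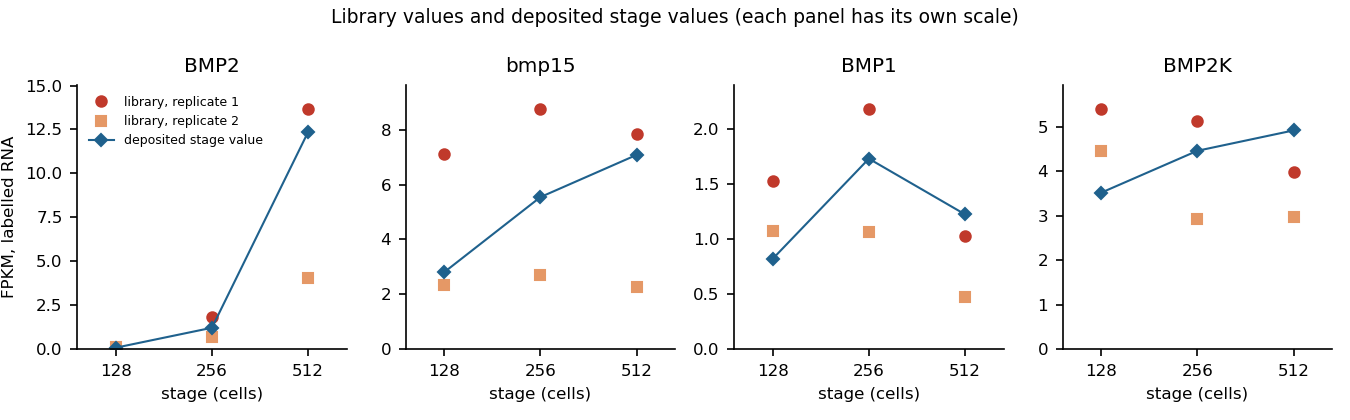
FPKM in labelled RNA (vertical axis, own scale in each panel) by stage (horizontal axis, number of cells) for the 4 Bmp genes present in both gene tables: circles and squares are the libraries of replicates 1 and 2, diamonds the deposited stage values. The stage values of bmp15 go from 2.81 to 7.09 FPKM while its library values overlap across stages, and BMP2 is highest at 512-cell in both.

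Receptor and Smad genes listed for the pathway were present at all stages and none passed between 128-cell and 512-cell. Over all tested genes 4.96% were higher and 0% lower, and 0 calls in lists this short lie near that share. Of 6 receptor genes 0 were higher and 0 lower, with a median of -0.10 beside -0.11 over all genes; at an unadjusted p under 0.05 none passed either. The type I receptor BMPR1A had 0.57 ± 0.60 and acvr1l, the type I receptor known as Alk8, 0.49 ± 0.83. The activin-type receptors ACVR2A and ACVR2B had -0.43 ± 0.54 and -0.42 ± 0.59. Both ACVR1B IDs, also of an activin-type receptor, had -0.25 ± 0.62 and 0.06 ± 0.58, so the list is not one of Bmp receptors alone. In the fit of all 3 stages acvr1l was the 1 of 6 higher with the label (1.26 ± 0.40, limma adjusted p = 0.0181), beside 11.9% of all tested genes. It had 8.27 and 2.88 FPKM at 128-cell and 14.2 and 3.67 FPKM at 512-cell in labelled RNA, and at most 2.64 FPKM without the label.

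Of 4 Smad pathway genes 0 passed, beside 4.96% of all tested genes, with a median of -0.35. SMAD5, a Smad that Bmp receptors phosphorylate, had 63.6 and 25.7 FPKM in the labelled 128-cell libraries and 56.4 and 16.3 FPKM at 512-cell (-0.40 ± 1.01). The co-Smad SMAD4 had -0.78 ± 0.70, and the ubiquitin ligases SMURF1 and SMURF2, which mark Smads and receptors for breakdown, had -0.31 ± 0.66 and -0.19 ± 0.50. Of 3 precursor protease genes, both FURIN IDs and PCSK5, 0 passed, and their median was 0.03. Of 7 upstream regulators and maternal genes of the embryo, nanog among them, 0 passed as well. In lists this short 0 calls lie near the share over all tested genes.

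Of 6 genes found that restrain or modulate Bmp signals, 3 could be tested and 1 rose from 128-cell to 512-cell, beside 4.96% of all tested genes. That was chrd, which encodes Chordin: it had 0.0334 and 0 FPKM at 128-cell, 0.759 and 0.297 FPKM at 256-cell and 4.68 and 1.69 FPKM at 512-cell, with 0, 0 and 0.0353 FPKM without the label. Its difference was 1.94 ± 0.41 (limma adjusted p = 0.0189, and 0.0559 without labelled 128-cell replicate 1). It reached 1 FPKM in both labelled 512-cell libraries and no other, so it entered the test through the stage where it was high, and could not be tested without either of them. The list that holds chrd was chosen with earlier results of these data known, so its count is a description and no test. BAMBI, a membrane-bound decoy receptor, had 3.80 and 0.966 FPKM at 256-cell, 10.6 and 3.73 FPKM at 512-cell and at most 0.427 FPKM without the label; its difference from 128-cell to 512-cell was 1.98 ± 0.62 (limma adjusted p = 0.135). The follistatin-like gene FSTL1 had -0.80 ± 0.38 (limma adjusted p = 0.695).

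NOG, the symbol of the Bmp-binding protein Noggin, stayed under the level for testing. It was listed at 0 in all 3 unlabelled libraries, and in labelled RNA it had 0.0503 and 0.0551 FPKM at 128-cell and 2.49 and 0.636 FPKM at 512-cell. The tolloid-like protease gene TLL1 was at most 0.377 FPKM, and RGMA, a Bmp co-receptor gene, reached 2.13 FPKM in labelled 512-cell replicate 1.

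**Figure D4:**
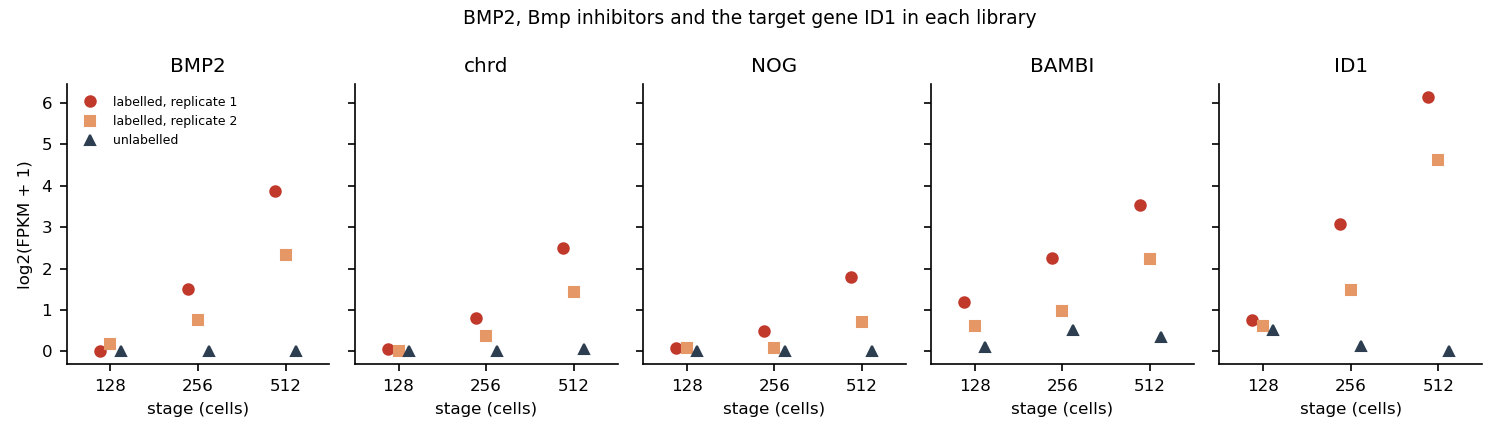
Level as log2(FPKM + 1) (vertical axis) by stage (horizontal axis, number of cells) of BMP2, of the inhibitor genes chrd, NOG and BAMBI and of the target gene ID1, with 1 point per library (circles and squares labelled replicates 1 and 2, triangles unlabelled). These genes were chosen for the plot after their values were seen; both labelled 512-cell values are above all others for chrd at 4.68 and 1.69 FPKM, while for BAMBI labelled 512-cell replicate 2 (3.73 FPKM) lies just below labelled 256-cell replicate 1 (3.80 FPKM).

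Among other ligands of the Tgf-beta family, 3 of 6 rose from 128-cell to 512-cell, beside 4.96% of all tested genes, with a median of 3.09 over the 6 and -0.11 over all genes. The Bmp-class ligand gene admp, made on the dorsal side, rose by 4.35 ± 0.71 (limma adjusted p = 0.00544). Its labelled 128-cell values were 0.112 and 0.361 FPKM, and those of 512-cell were 41.7 and 13.8 FPKM. The Nodal ligand gene ndr1 and the Nodal inhibitor gene lft2 also rose, by 3.19 ± 0.73 and 4.18 ± 0.97 (limma adjusted p = 0.0271 and 0.0295), and the related gene lft1 did not pass (0.0789). In both labelled 128-cell libraries admp, ndr1 and lft2 were under 1 FPKM, so they entered the test through the later stages. This list was chosen with earlier results of these data known, so its count is a description and no test. Without labelled 512-cell replicate 1 admp alone passed, and ndr1 also lost its call without labelled 128-cell replicate 2 (limma adjusted p = 0.112). GDF9, an oocyte factor that pairs with BMP15, had 5.32 and 1.84 FPKM at 128-cell and 3.05 and 0.478 FPKM at 512-cell (-0.79 ± 0.69, limma adjusted p = 1). Like bmp15 it was present without the label, at 2.36, 1.35 and 0.564 FPKM.

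Of 26 symbols listed as targets of Bmp signals in the early embryo, 8 were found among the measured genes. From 128-cell to 512-cell 4 of the 8 rose, beside 4.96% of all tested genes, with a median of 2.10 over the 8. The list was chosen with earlier results of these data known, so its count beside that of all genes is a description and no test. Several of the 8 respond to other signals too. The 4 that rose were under 1 FPKM in both labelled 128-cell libraries, so they entered the test through the later stages. With against without label at 512-cell, 2 of the 8 (ID1 and GATA2) and 2 of the 6 ligands above (admp and ndr1) were higher, beside 3.72% of all tested genes. ID1, a direct target of Bmp-activated Smads, rose by 4.69 ± 0.75 (limma adjusted p = 0.0047). It went from 0.705 to 69.6 FPKM in replicate 1 and from 0.536 to 23.7 FPKM in replicate 2, with at most 0.433 FPKM without the label. GATA2, a factor of ventral ectoderm and blood, rose by 2.82 ± 0.59 (limma adjusted p = 0.0178), TFAP2C, of the surface ectoderm, by 2.07 ± 0.51 (0.0408), and cdx4, a caudal homeobox gene, by 2.34 ± 0.59 (0.0453). The ventral ectoderm gene TP63 had -0.36 ± 0.50 and ID2 -0.41 ± 0.85. ID3 went from 9.49 to 34.6 FPKM in labelled replicate 1 and from 2.60 to 9.01 FPKM in replicate 2. TFAP2A went from 0.299 to 9.83 FPKM and from 0.336 to 2.09 FPKM, and neither ID3 nor TFAP2A passed. The count was 2 on omission of either labelled 128-cell library or of labelled 512-cell replicate 1. The call of cdx4 also ended with no filter on low values (limma adjusted p = 0.0565) and that of TFAP2C with a pseudocount of 0.1 (0.0592). With the FPKM sum outside the mitochondrial genome as the scale 0 genes of these lists passed, where ID1 and admp each had a limma adjusted p of 0.0983. The tissue marker actc1a moved with these genes, from 0 in both labelled 128-cell libraries to 3.35 and 1.09 FPKM at 512-cell (limma adjusted p = 0.0318). Its call ended without labelled 128-cell replicate 1 (limma adjusted p = 0.104) and without replicate 2 (0.0641), and it too entered the test through the 512-cell libraries alone. The other 16 listed markers were not found by symbol among the measured genes, and the part of actc1a in these results was not tested.

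**Figure D5:**
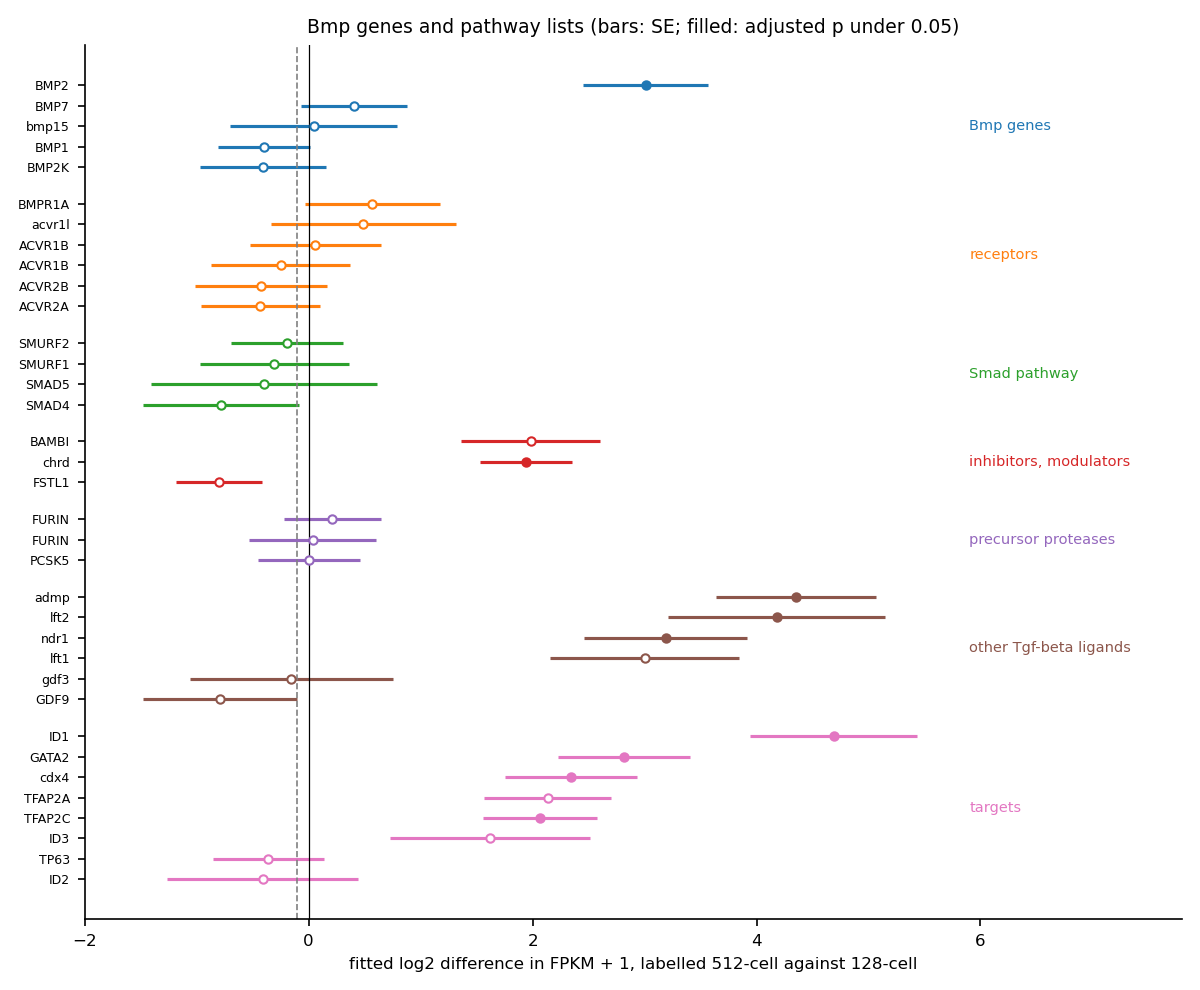
Fitted differences of labelled RNA at 512-cell against 128-cell on the log2(FPKM + 1) scale (horizontal axis) for the Bmp genes and the tested genes of 6 pathway lists, 1 row per gene ID. Bars are SE, filled points have a limma adjusted p under 0.05 and the dashed line is the median of all tested genes (-0.11). No receptor, Smad gene or precursor protease is filled, beside 4.96% of all tested genes that were called higher. BMP2 (3.01), chrd (1.94), admp (4.35) and ID1 (4.69) lie to the right of the line. FSTL1, GDF9, ID2 and TP63, from the lists that hold chrd, admp and ID1, lie to its left.

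Among genes with a symbol that is no clone name, those whose log2(FPKM + 1) over the 9 libraries was most like a member were found. Pearson's r was used, as a description. All libraries share their depth and scale across genes, which raises such correlations. For BMP2 these were DIMT1 (r = 0.998), the zinc-finger gene znfl1 (0.997) and znfl1l (0.997). For bmp15 they were HSPA14 (0.995), ITSN2 (0.994) and USP1 (0.994), and for BMP2K accs (0.989), MAST2 (0.985) and TAOK3 (0.981). For BMP1 they were galnt6 (0.978), septin7b (0.978) and JMJD1C (0.976), and for BMP7 SNRPB (0.962), rfwd3 (0.958) and cntf (0.957).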

How the data were processed

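RNA from AB wild-type zebrafish embryos was sequenced in 9 libraries, and the authors deposited FPKM, per the file headers, a level scaled to transcript length and to the fragments of the library. Per the submitters' processing notes, CASAVA 1.7, TopHat 1.3.3 and Cufflinks 2.0.2 were used on the build Zv9; annotation version, strand handling, multi-match reads and scaling between libraries are not given in the sources used here. One gene table holds FPKM per library and another holds 1 value per stage over the labelled libraries. Transcript values were not used, since transcripts are not paired with genes. No counts were used, so depth per library is unknown and no counting interval is given. Symbols came from a table of gene IDs, which named 7028 of 8969 IDs in the per-library table.

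A gene entered a fit if 2 or more of its libraries reached 1 FPKM. Two-sided tests were made with limma 3.58.1 in R 4.3.3 on log2(FPKM + 1), with variances moderated along a trend with level. Adjustment was by Benjamini-Hochberg over every gene in the fit (7438 in labelled libraries, 7697 over all 9), with a threshold of 0.05. Stage comparisons used the 6 labelled libraries. Labelled against unlabelled RNA was fitted per stage on all 9 libraries, where a lone unlabelled library is taken to vary as the technical replicates do, and over the 3 stages on stage values with stage as a block. The procedure was run on simulated data with independent noise in each library. Those data lack the deviations that replicates share across stages, so they cannot show how the tests behave with them. Alternatives were a pseudocount of 0.1, no filter, size factors, the FPKM sum outside the mitochondrial genome as the scale, replicate number as a block, and each library left out in turn. The members, the pathway lists and the tests were chosen with earlier results of these data known. The lists include alternative symbols of the same gene, and only genes found among the measured ones are counted. Receptors had 6 IDs for 21 symbols, Smad pathway genes 4 for 13 and precursor proteases 3 for 8. Inhibitors and modulators had 6 for 38, and other ligands 6 for 32. All Bmp members are named. Of each pathway list up to 4 genes with the smallest p at 512-cell against 128-cell, and partners of a member, are named. Further genes are named to show the range of a list, among them all 8 tested target genes. For each member the 3 genes with the highest correlation over the 9 libraries are named. IDs without a symbol and clone-type symbols were left out of that ranking.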

Additional observations from a re-analysis of the deposited data

How the results depend on the processing

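BMP2 was the 1 member called at 512-cell against 128-cell in all alternatives except the FPKM sum outside the mitochondrial genome, where 0 members passed. At 512-cell against 256-cell, 0 members passed as deposited, 1 with size factors, and 0 to 1 with each library left out. For the difference of changes between labelled and unlabelled RNA the count was 0, with 1 under size factors and 0 to 1 with a library left out. Over the 3 stages it was 1, with 0 under a pseudocount of 0.1, 0 under size factors, 0 under the FPKM sum outside the mitochondrial genome and 0 to 2 with a library left out. At 256-cell against 128-cell, and with against without label at 128-cell, 0 passed in all alternatives run. The causes of these changes were not tested. Over all genes, 369 passed at 512-cell against 128-cell, with 1 under the FPKM sum outside the mitochondrial genome, 825 with the replicate block and 210 to 519 with a library left out. At 256-cell against 128-cell 0 passed, with 80 under size factors, 82 under a pseudocount of 0.1 and 242 with the block, and at 512-cell against 256-cell 0, with 217 and 382 under size factors and the block. With against without label at 512-cell 303 passed, with 492 under a pseudocount of 0.1, 973 under size factors and 156 under the FPKM sum outside the mitochondrial genome. Over the 3 stages 988 passed, with 1543 under that sum and 151 to 2898 with a library left out. Leaving out the lone unlabelled library of a stage could not be fitted for that stage. Leaving out a labelled library left 1 in its stage, and some adjusted p-values of BMP2 were then smaller than in the full fit. Counts from such fits are thus no measure of the spread within that stage.

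Values that did not pass changed sign in some settings. bmp15 at 512-cell against 128-cell went from 0.04 to -0.77 with the FPKM sum outside the mitochondrial genome and lay between -0.68 and 0.77 with a library left out; BMP7 lay between -9.8e-05 and 1.02. BMP1 over the 3 stages went from 0.05 to -0.18 with size factors and lay between -0.0573 and 0.21 with a library left out.

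Replicate numbers are shared between stages, with nothing in the labels on what a number stands for. Deviations of replicates from their stage mean correlated across genes at 0.739, 0.762 and 0.660 between stages, and at 0.747, 0.750 and 0.676 after size factors. With replicate number as a block (unlabelled libraries all number 1), 1 member passed at 512-cell against 256-cell (BMP2), 2 with against without label at 256-cell (BMP2 and bmp15), 3 at 512-cell (BMP2, bmp15 and BMP7) and 2 for the difference of changes (BMP2 and bmp15). In the fits with unlabelled libraries the block also sets all of them at the level of replicate 1, and of 7697 genes 3613 then passed at 256-cell (87 with no block), 5208 at 512-cell (303) and 2922 for the difference of changes (0). With FPKM alone, the depth behind low values such as those of BMP7 is unknown.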

Other observations

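Divided by size factors, the values of bmp15 spanned 2.57 to 5.21 with the label and 2.84 to 3.47 without it. Those of BMP1 at 512-cell were 0.675 and 0.662 with the label and 1.12 without.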
